A study of Mus musculus with 46 samples.

Results

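Collagen crosslinking and folding enzymes were followed here as 10 genes: Lox, Loxl1, Loxl2, Loxl3, Plod1, Plod2, P4ha1, P4ha2, Serpinh1 and Pcolce. They were the rows of the deposited expression table whose gene symbol was one of these names, 10 of 53465 genes. The table held RNA-seq of 4 cell populations sorted by flow cytometry from mouse kidney. These were proximal tubule cells (PT, binding Lotus tetragonolobus lectin, LTL+), macrophages (F4/80+), endothelial cells (CD31+) and stromal cells (PDGFRB+). The kidneys came from young adult male wild-type C57BL/6 mice after sham surgery, after unilateral ureteric obstruction (UUO), or after UUO that was later reversed by reimplanting the ureter (rUUO). UUO causes tubular injury and interstitial fibrosis, and the comparison with rUUO asks what persists once the obstruction is relieved. The series text names obstruction for 2 and for 7 days, and the labels do not say which of these a UUO sample had. Groups held 3 or 4 samples, 44 in all, and each replicate number names a sorted sample of its population. Each group is a gated population rather than a pure cell type. Nothing in the labels ties samples to separate animals beyond these numbers, so p-values measure the spread between these samples.

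A collagen molecule is modified in several steps before it becomes part of a fibre. In the endoplasmic reticulum, prolyl 4-hydroxylases hydroxylate proline so that the triple helix is stable, lysyl hydroxylases hydroxylate lysine so that stable crosslinks can form, and the chaperone HSP47 holds the folded helix until it leaves. Outside the cell, the carboxyl propeptide is removed by a proteinase that procollagen C-endopeptidase enhancer accelerates, and lysyl oxidases then oxidise lysine residues so that neighbouring molecules crosslink. In the kidney, fibroblasts and pericytes are known as the main source of fibrillar collagen in fibrosis.

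P4ha1 and P4ha2 encode the catalytic alpha subunits of prolyl 4-hydroxylase, and Plod1 encodes a lysyl hydroxylase. Serpinh1 encodes HSP47. These are the members whose RefSeq promoter window (GRCm38.p6) was free of annotated exons, so the 150 bases before the start site are shown because all 4 genes were higher in stromal UUO than in sham. Capitals mark the cores of the hypoxia response element, ACGTG and GCGTG, on either strand. Hydroxylase genes of this family are known targets of hypoxia-inducible factor.
P4ha1, chr10:59323146-59323295, plus strand: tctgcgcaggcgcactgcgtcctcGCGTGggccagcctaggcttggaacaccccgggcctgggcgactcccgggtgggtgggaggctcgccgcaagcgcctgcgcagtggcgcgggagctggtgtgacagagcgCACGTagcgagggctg
P4ha2, chr11:54100774-54100923, plus strand: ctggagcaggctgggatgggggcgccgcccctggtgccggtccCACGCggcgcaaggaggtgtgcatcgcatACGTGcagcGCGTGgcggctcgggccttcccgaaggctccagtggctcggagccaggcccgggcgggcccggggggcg
Plod1, chr4:147936777-147936926, minus strand: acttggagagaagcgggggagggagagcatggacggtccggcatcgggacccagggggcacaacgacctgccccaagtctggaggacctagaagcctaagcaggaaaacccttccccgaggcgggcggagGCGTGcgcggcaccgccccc
Serpinh1, chr7:99353240-99353389, minus strand: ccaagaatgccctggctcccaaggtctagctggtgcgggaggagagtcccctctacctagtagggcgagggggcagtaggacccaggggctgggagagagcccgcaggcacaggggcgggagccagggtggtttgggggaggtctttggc
P4ha1 held ACGTG on the other strand 16 bases and GCGTG on its own strand 126 bases before the start. P4ha2 held ACGTG at -78 and GCGTG at -69 on its own strand, and GCGTG at -107 on the other strand. The P4ha2 window lies inside the annotated gene, which begins at 54100095, so it precedes an internal start site and not the first one. Plod1 held GCGTG at -20, and Serpinh1 held neither core in this window. The bases just after the RefSeq start site of Plod1 were not found in any GENCODE transcript of the gene. Across all 32851 RefSeq promoters, 28.6% held at least 1 of these cores in the same 150 bases on either strand, against 3 of these 4. A GC box, GGGCGG, was in 3 of the 4 and in 28.6% of all promoters, and a CCAAT box was in 0 of the 4 and in 24.5% of all. These matches are letters in a window and not measured binding.

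Libraries differed in composition. Mitochondrial transcripts took 58.7% to 75.6% of summed FPKM (fragment counts scaled by transcript length and library total) in PT and 20.2% to 45.8% in the other populations. Relative depth ranged from 0.596 to 1.64. It was estimated from low non-zero values of short genes, scaled by gene length, and the absolute depth is unknown. Pdgfrb was at 92.9 to 258 FPKM in stromal samples and at most 6.75 elsewhere, Adgre1 (F4/80) at 152 to 247 in macrophages and at most 1.54 elsewhere, and Pecam1 (CD31) at 322 to 530 in endothelial samples and at most 13.7 elsewhere. The summed level of 10 proximal tubule markers was 5812 to 7037 FPKM in PT sham and 2193 to 3189 in PT UUO, against at most 609 in any sample of another population. In bulk samples of this kind, fewer cells of a type and less RNA per cell cannot be told apart.

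In sham kidneys, the lysyl oxidases, Plod2, Serpinh1 and Pcolce were highest in stromal cells, and Plod1, P4ha1 and P4ha2 were less set apart. In the plot of sham levels, stromal samples lie above every PT sample for all 10 genes. The share of all genes separated in this way was not computed, so this separation is given as a description only. Against PT, 10 of 10 were higher in stromal cells by limma with Benjamini-Hochberg adjustment over all 14204 genes tested, where 67.6% of genes were called in either direction. The median log2 difference was 3.49 for the members and 1.06 for all genes. Against macrophages 8 of 10 were higher (48.1% of all genes called), and against endothelial cells 7 of 10 (24.2% called). Endothelial cells were higher than PT for 6 and lower for 0 (62.3% called), and macrophages higher than PT for 4 and lower for 3 (64.9% called). In both of these contrasts the members called were near the share of all genes called in either direction. Endothelial cells were higher than macrophages for 6 and lower for 1 (45.7% called). The 4 lysyl oxidase genes were below 1 FPKM in every PT sham sample, so they entered this fit through the other populations, and for them the count against PT gives no support beyond the levels. The same holds for Loxl1 against macrophages (mean 0.375 FPKM) and endothelial cells (mean 0.298), which the counts of 8 and 7 include. Of all calls between stromal cells and PT, 88.3% were higher in stroma, and 51.5% after quantile normalization. With that normalization the stromal difference from PT was no longer called for Plod1 (adjusted p = 0.0743), P4ha1 (0.686) and P4ha2 (0.62) in limma, and P4ha2 was also lost when FPKM was rescaled without mitochondrial genes. For macrophages against PT, both of these settings ended the calls of Plod1, P4ha1 and Pcolce, and P4ha1 went from 1.05 to 0.03 with rescaling and to -0.02 with quantile normalization. The share of all calls that were higher in macrophages was 80.7%, and 54.8% and 50.03% in these settings. For endothelial cells against PT it was 86.0%, and 69.3% and 51.1%, and quantile normalization ended the calls of Loxl2, Loxl3 and P4ha2. With rescaling the share went from 58.3% to 74.9% for stromal cells against macrophages and from 53.6% to 67.3% for endothelial cells against macrophages. Of the 3 genes lower in macrophages than in PT, P4ha2 was lost with no filter or TPM, and Serpinh1 with no filter, TPM or no trend. These 2 were lost without 3 and 10 of the 15 sham samples in turn. For endothelial cells over macrophages, Plod1 was lost with no filter, and Plod1 and Loxl2 without 6 and 4 of the 15.

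**Figure D1:**
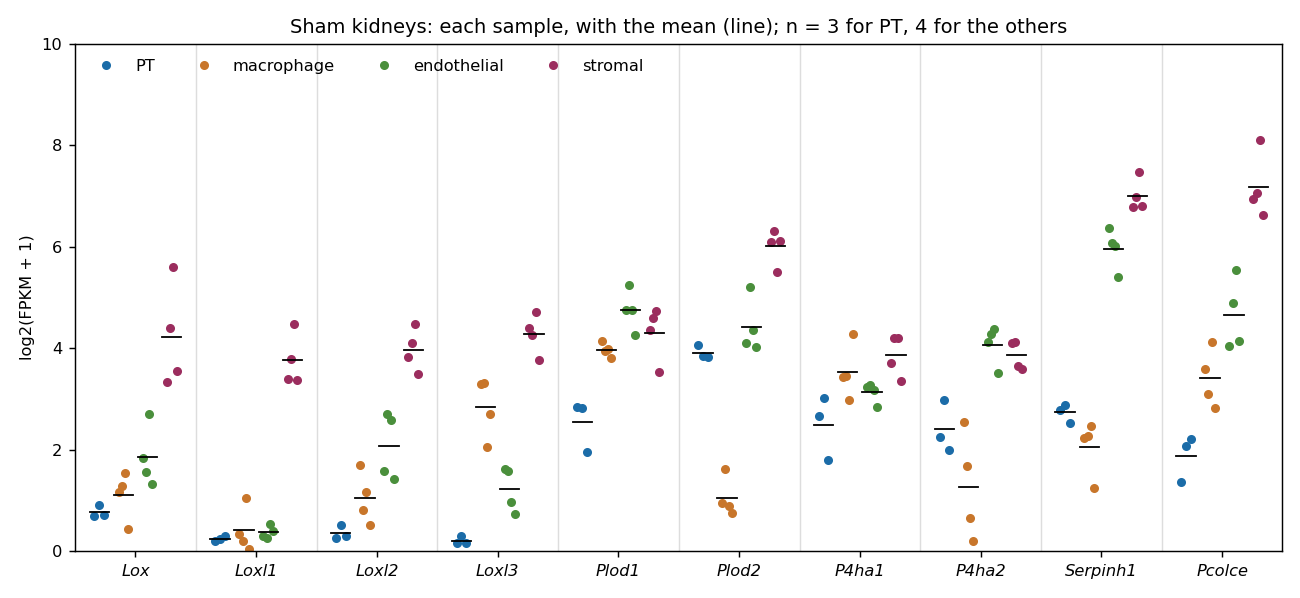
Levels of the 10 genes in sham kidneys on a log2(FPKM + 1) axis. Points are samples coloured by population and lines are group means (n = 3 for PT, n = 4 for the others). Stromal samples lie highest for Lox, Loxl1, Loxl2, Loxl3, Plod2, Serpinh1 and Pcolce, while Plod1 and P4ha2 overlap between endothelial and stromal samples.

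Pcolce, the procollagen C-endopeptidase enhancer (chr5:137605103-137613784, build GRCm38), had the highest mean of the 10 genes in stromal sham, 157 ± 79.4 FPKM (SD, n = 4). Serpinh1 (chr7:99345376-99353239) followed at 130.4 ± 31.2 and Plod2 (chr9:92542223-92608428), which hydroxylates the lysines of the collagen telopeptides, at 64.6 ± 14.4. Lox, the founding lysyl oxidase (chr18:52516069-52529867), averaged 21.9 ± 17.8, Plod1 (chr4:147909753-147936767) 19.7 ± 6.61 and Loxl3 (chr6:83034173-83052562) 19.0 ± 5.25. The lowest means were those of Loxl2 (chr14:69609068-69695834) at 15.2 ± 4.74, P4ha1 (chr10:59323296-59373304) at 13.97 ± 4.07, P4ha2 (chr11:54100095-54131665) at 13.8 ± 2.91 and Loxl1 (chr9:58287738-58313186) at 13.2 ± 5.49. These levels are per transcript length. From Lox down to Loxl1 neighbours in this order lay within 1 SD of each other.

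In endothelial sham cells Plod1 and P4ha2 were near their stromal levels. Plod1 was at 26.8 ± 7.82 FPKM and P4ha2 at 16.2 ± 4.08 (SD, n = 4), and neither difference from stromal sham passed the test (log2 difference stromal minus endothelial -0.45 ± 0.28 SE, adjusted p = 0.289 in limma, and -0.21 ± 0.40, adjusted p = 0.778). Serpinh1 reached 63.1 ± 16.5 in endothelial sham, against 5.68 ± 0.858 in PT (n = 3) and 3.36 ± 1.38 in macrophages. Plod2 stood at 21.7 ± 9.65 in endothelial cells and at 14.1 ± 1.37 in PT but at only 1.13 ± 0.625 in macrophages. Of the lysyl oxidases, Loxl3 had the highest mean in macrophage sham, at 6.57 ± 2.78, above endothelial (1.42 ± 0.722) and PT (0.15 ± 0.0608) samples. The log2 difference endothelial minus macrophage for Loxl3 was -1.61, adjusted p = 0.000416 in limma, and it was called in each of the 7 other settings. Loxl3 shares 535 exonic bases with Htra2 on the opposite strand, which was at 20.6 FPKM in macrophage sham, and strand-aware counting is not given in the sources used here.

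After obstruction all 10 genes rose in stromal cells, and for each of them the lowest UUO sample exceeded the highest sham sample. The plot of stromal samples shows this gene by gene. In the limma fit, 26.4% of 14033 genes were called in this comparison and 13.4% were higher, against 10 of 10 members. Of all calls 50.8% were higher, and 37.3% when FPKM was rescaled without mitochondrial genes. Non-overlap in this direction was found in 13.2% of genes. The 10 calls held in each of the 8 other settings and without each replicate. The median log2 change was 1.89 for the members and -0.07 for all genes tested. All 10 had a mean of at least 13.2 FPKM in sham, so none entered the fit only through its UUO level.

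Lox rose most. Its 4 sham samples were at 9.09, 10.7, 20.1 and 47.5 FPKM, the obstructed ones at 222, 518, 528 and 579, and its rUUO samples at 75.8, 80.9, 86.7 and 102. No group overlapped another, with sham replicate 3 the highest of its group and UUO replicate 3 far below the other UUO samples. The change from sham to UUO was 4.54 ± 0.40 on the log2(FPKM + 1) scale (SE, adjusted p = 9.73e-07 in limma), a ratio of means of 21.1. It stayed between 4.25 and 5.0 when any 1 stromal replicate was left out. Lox shares 30 of its 4778 exonic bases with an antisense transcript.

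Loxl2, a scavenger-receptor lysyl oxidase of basement membrane and fibrillar matrix, was the next largest. Sham samples were at 10.2, 13.2, 16.2 and 21.3 FPKM, UUO samples at 111, 147, 154 and 167, and rUUO samples at 87.6, 91.9, 97.4 and 99.2. The 3 groups were fully apart, and the rise was 3.20 ± 0.21 (adjusted p = 5.65e-08, limma). Loxl1, which is known for its part in elastic fibres, went from 9.42 to 21.1 FPKM in sham to 47.9 to 72.6 in UUO, a log2 rise of 2.17 ± 0.24 (adjusted p = 6.02e-06). Loxl3 went from 12.6 to 25.3 to between 43.7 and 61.0, a rise of 1.41 ± 0.22 (adjusted p = 0.000159, limma). Htra2, on the opposite strand of Loxl3, went from a mean of 9.83 to 28.3 FPKM in the same samples, and its share in the Loxl3 value was not tested. Loxl2 and Plod2 share 301 and 346 exonic bases with opposite-strand transcripts that averaged at most 3.43 and 1.81 FPKM in any stromal group.

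Among the enzymes and chaperones of the endoplasmic reticulum, Serpinh1 rose from 110, 111, 125 and 176 FPKM in sham to 393, 556, 761 and 794 in UUO. The log2 change was 2.23 ± 0.22 (adjusted p = 2.13e-06, limma). Plod2 rose by 1.94 ± 0.24, from 44.4 to 78.5 FPKM in sham to 173 to 314 in UUO (adjusted p = 2.08e-05, limma), and Plod1 by 1.5 ± 0.25, from 10.6 to 25.8 to between 42.7 and 67.1 (adjusted p = 0.000376). P4ha1 was at 9.17 to 17.4 FPKM in sham and at 28.7, 35.8, 72.9 and 90.1 in UUO, a rise of 1.84 ± 0.34 (adjusted p = 0.000747, limma). P4ha2 was at 10.98 to 16.5 in sham and at 29.4, 31.1, 60.6 and 73.7 in UUO, a rise of 1.66 ± 0.32 (adjusted p = 0.00104, limma). UUO replicates 1 and 4 were the 2 highest for both subunits, and this held for 6 of the 10 genes: Loxl1, Plod2, P4ha1, P4ha2, Serpinh1 and Pcolce. Pcolce itself rose from 97.6, 123, 133 and 274 FPKM to 402, 425, 571 and 771, a change of 1.85 ± 0.27 (adjusted p = 0.000125, limma).

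**Figure D2:**
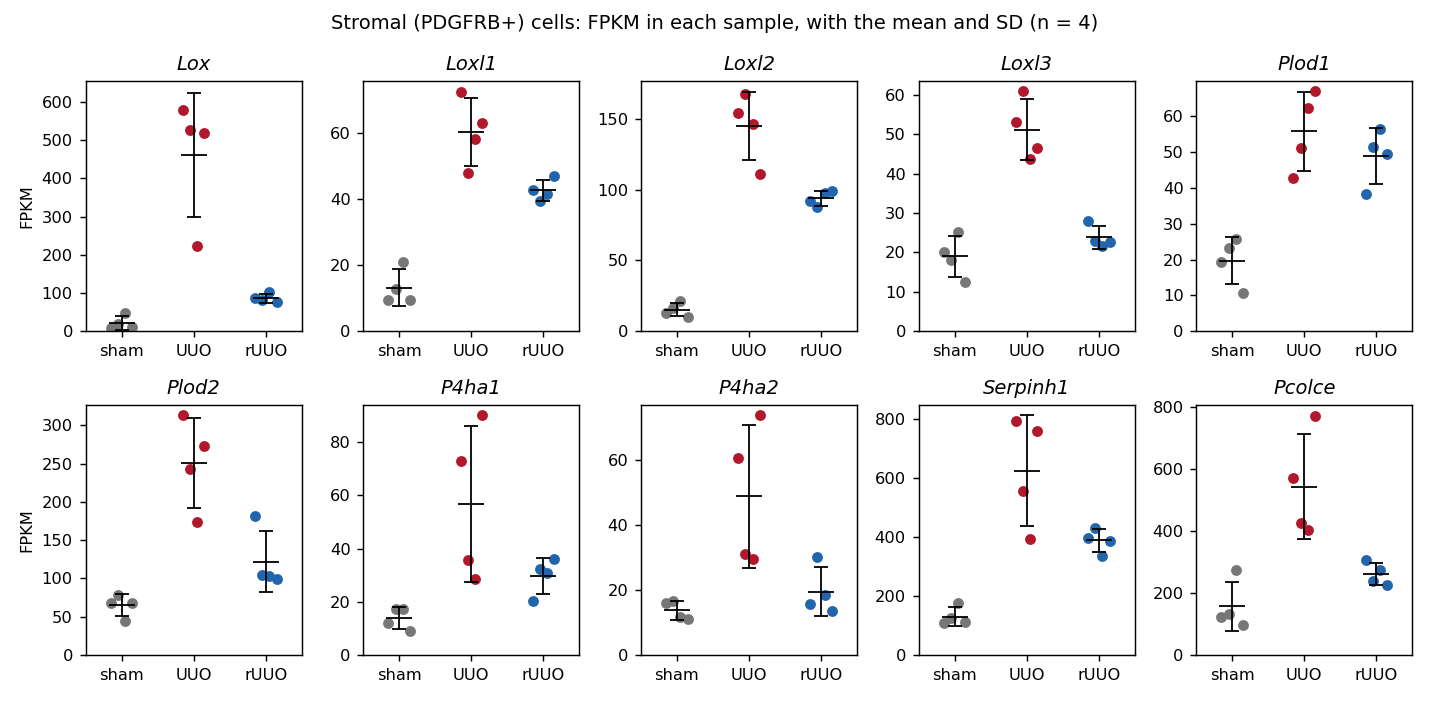
FPKM of each gene in the 12 stromal samples by surgery, on linear axes that start at 0. Points are samples, and the bar and whiskers give the mean and SD (n = 4 per group). Every UUO point lies above every sham point in all 10 panels, and Lox falls furthest in rUUO, from a mean of 462 to 86.3 FPKM.

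Markers of stromal and of other cells moved in the same comparison. Of 9 stromal markers in the fit, Dcn, Lum and Pdgfra rose and Pdgfrb, Des, Cspg4 and Notch3 fell, and their summed level went from 1163 to 1788 FPKM in sham to 2437 to 4759 in UUO. Pdgfrb, the sort gene, fell from a mean of 212 to 117 FPKM. Of the markers of other cells, 7 of 8 for the distal nephron, 8 of 9 for the proximal tubule and 4 of 5 for podocytes fell. Their sums went from 396 to 588 FPKM to 30.3 to 67.8, from 109.7 to 177 to 23.1 to 35.6, and from 167 to 278 to 57.3 to 118. Macrophage markers, with 2 of 8 lower, summed to 130.4 to 145 FPKM in sham and 56.9 to 120.1 in UUO, and endothelial markers, with 1 higher and 3 lower of 9, to 84.1 to 107 and 48.3 to 84.4. Their part in the rise of the members was not tested.

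After reversal all 10 members had lower stromal means than in UUO, by unequal amounts. From UUO to rUUO, 4 of 10 fell in the limma test, where 4.17% of genes were called and 1.22% were lower: Lox, Loxl3, Plod2 and P4ha2. The median log2 change of the members was -0.90, against 0.19 for all genes, and the estimate was below 0 for all 10. Lox fell by 2.32 ± 0.40 on the log2 scale (adjusted p = 0.00638, limma), P4ha2 by 1.24 ± 0.32 (0.0394), Loxl3 by 1.07 ± 0.22 (0.0133) and Plod2 by 1.05 ± 0.24 (0.0244). Pcolce missed the threshold at -1.01 ± 0.27 (adjusted p = 0.0504, limma), although its rUUO samples, 226, 238, 274 and 305 FPKM, all lay below its UUO samples. For Plod2 and P4ha2 the groups overlapped, through rUUO replicate 1 at 181 FPKM for Plod2 and rUUO replicate 2 at 30.2 FPKM for P4ha2. The falls of Plod2 and P4ha2 lost their call without 6 and without 8 of the 12 stromal replicates in turn, with adjusted p up to 0.0692 and 0.109 in limma. The falls of Lox and Loxl3 kept their call without each replicate, but 0 of the 4 falls were called in all 8 other settings. Leaving out UUO replicate 1 or 4, or rUUO replicate 4 or 6, left 2 of the 10 called, and leaving out UUO replicate 3 left 6. Of all calls in this comparison 70.8% were higher, and 53.3% after quantile normalization.

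The remaining estimates were smaller. Loxl1 (-0.48 ± 0.24, adjusted p = 0.277 in limma) and Loxl2 (-0.60 ± 0.21, adjusted p = 0.121) had rUUO samples wholly below UUO, and non-overlap in that direction was found in 2.98% of all genes. Plod1 changed least, from a mean of 55.8 ± 11 FPKM in UUO to 48.9 ± 7.71 in rUUO (SD, n = 4), a log2 change of -0.18 ± 0.25 (adjusted p = 0.742, limma). Expressed on group means, 85.4% of the UUO rise was gone in rUUO for Lox, 85.1% for Loxl3 and 84.0% for P4ha2. The same share was 73.0% for Pcolce, 69.1% for Plod2 and 63.0% for P4ha1. It was 47.8% for Serpinh1, 39.2% for Loxl2, 37.5% for Loxl1 and 19.0% for Plod1.

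Against sham, 8 of 10 members were still higher in rUUO stromal cells, where 17.2% of genes were called and 11.6% were higher. Of all calls 67.6% were higher, and 49.1% when FPKM was rescaled without mitochondrial genes. Loxl2 stood 2.60 ± 0.21 above sham on the log2 scale (adjusted p = 7.81e-07, limma), Lox 2.22 ± 0.40 (0.00115), Loxl1 1.69 ± 0.24 (0.000112), Serpinh1 1.59 ± 0.22 (9.11e-05) and Plod1 1.32 ± 0.25 (0.00161). These 5 kept their call in every setting tried and without each replicate. P4ha1 (1.06 ± 0.34, adjusted p = 0.041 in limma), Plod2 (0.89 ± 0.24, 0.0165) and Pcolce (0.84 ± 0.27, 0.0477) were called in the fit but not when FPKM was rescaled without mitochondrial genes or quantile normalised. Loxl3, at 21.7 to 27.9 FPKM in rUUO against 12.6 to 25.3 in sham, and P4ha2, at 13.4 to 30.2 against 10.98 to 16.5, were not called (0.34 ± 0.22, adjusted p = 0.326, and 0.42 ± 0.32, adjusted p = 0.428, limma). By mean FPKM the order of the lysyl oxidases in stromal cells was Lox, Loxl3, Loxl2, Loxl1 in sham, Lox, Loxl2, Loxl1, Loxl3 in UUO and Loxl2, Lox, Loxl1, Loxl3 in rUUO, with Loxl2 at 94.0 ± 5.25 and Lox at 86.3 ± 11.3 FPKM in the last.

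Outside the stroma fewer members were called than in it, as the plot of changes shows. Each count is set beside the share of all genes called in the same comparison. The title of 1 PT sample names both sham and UUO, and it stands here as UUO replicate 2 by its treatment label, while PT sham replicate 3 was not analysed here because no column bears its name. In PT, 6 of the 10 passed the filter of a mean of at least 1 FPKM, and 2 of these rose from sham to UUO, Pcolce and Serpinh1, where 32.8% of 11416 genes were called and 27.9% were higher. That count was near the share of all genes. The 4 lysyl oxidases did not pass, and none of them exceeded 2.23 FPKM in any PT sample. PT values sat on a shifted background in this comparison, since the median log2 change of all genes was 0.51, and -0.04 after quantile normalization. Of all calls 85.0% were higher, 71.3% when FPKM was rescaled without mitochondrial genes and 50.02% after quantile normalization. Under quantile normalization the rise of Serpinh1 was 0.61 and no longer called (adjusted p = 0.0629, limma), and that of Pcolce was 4.35.

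Pcolce in PT cells showed the largest fold from sham to UUO of any member in any population. It was at 1.55, 3.20 and 3.59 FPKM in sham, at 94.6, 99.3, 112 and 114 in UUO and at 14.7, 24.8 and 33.1 in rUUO. The 3 groups did not overlap, and the changes were 4.85 ± 0.28 from sham to UUO (adjusted p = 2.5e-08, limma), -2.14 ± 0.28 from UUO to rUUO (0.00154) and 2.71 ± 0.30 from sham to rUUO (3.79e-05). The ratio of means was 37.7 from sham to UUO, and 79.0% of the rise was gone in rUUO. Across all genes 3.83% were called from UUO to rUUO and 7.46% from sham to rUUO in PT. Each of these calls held in all 8 other settings and without each PT replicate. These include UUO replicate 2, the sample with the mixed title.

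A two-sided exact permutation test over the 3 sham and 4 UUO samples gave p = 0.0286 for PT Pcolce, the smallest this design allows. Pcolce in PT UUO was at 19.3% of its stromal UUO mean, whereas the summed stromal markers in PT UUO were at 0.87% and the summed fibrillar collagen chains at 0.296% of theirs. Summed stromal markers in PT were 12.2 to 15.5 FPKM in sham, 21.8 to 34.5 in UUO, and 27.5 to 31.1 after reversal, and 2 of the 4 in the fit rose in UUO, Dcn and Rgs5. Col1a1 was at 3.32 to 9.51 FPKM in PT UUO, and 0 of the 4 fibrillar collagens in the fit were called. Distal nephron markers moved in the same comparison. Their sum was 41.0 to 57.2 FPKM in PT sham, 237 to 291 with obstruction and 95.7 to 202 after reversal, and 3 of 8 were called in UUO. Atp6v1b1, a proton pump subunit of intercalated cells, went from 1.97 to 2.10 FPKM to between 41.0 and 52.1. Umod went from 15.2 to 19.6 to between 134 and 169. Krt8, also on this list, went from 3.95 to 5.55 to between 26.5 and 34.6, and which cells its rise came from was not tested. Slc12a1 (log2 change 1.08), Aqp2 (0.77), Aqp3 (0.48), Slc12a3 (0.16) and Calb1 (0.14) were not called. The part of stromal and distal nephron cells in the PT value of Pcolce was not tested. The genes that share exonic bases with Pcolce, Fbxo24 and an antisense transcript, averaged at most 0.363 FPKM in any PT group.

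**Figure D3:**
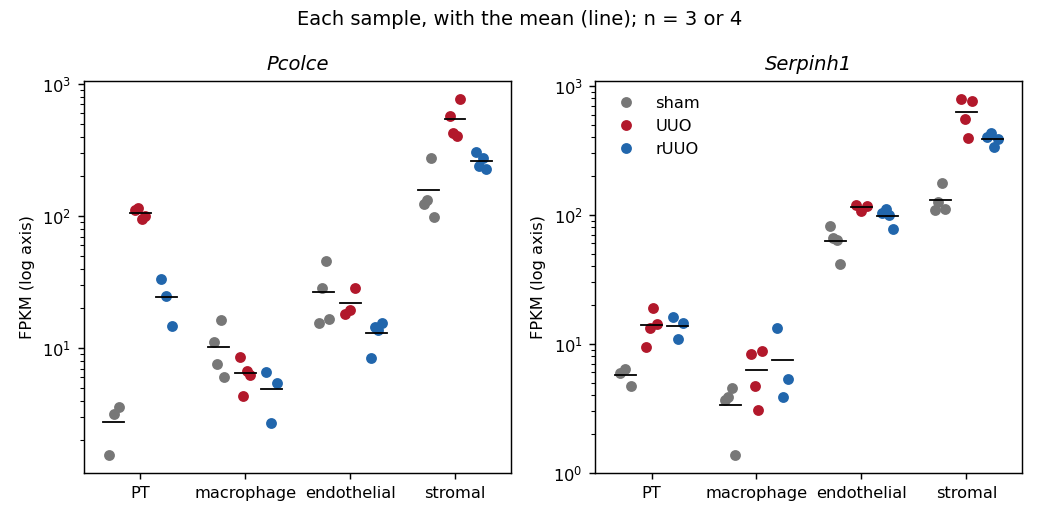
FPKM of Pcolce and Serpinh1 in every sample of the 4 populations by surgery, on log axes, with the group mean as a line (n = 3 or 4). Pcolce in PT rises from 1.55 to 3.59 FPKM in sham to 94.6 to 114 in UUO and returns in part in rUUO, while for Pcolce macrophage and endothelial samples overlap between sham and UUO.

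Serpinh1 in PT went from 4.73, 5.91 and 6.40 FPKM in sham to 9.47, 13.2, 14.1 and 19.1 during UUO, and its rUUO samples were at 10.9, 14.4 and 16.2. From UUO to rUUO the log2 change was 0.01 ± 0.26 (adjusted p = 0.991, limma). The rise over sham was 1.13 ± 0.26 in UUO (adjusted p = 0.00511, limma) and 1.14 ± 0.28 in rUUO (0.0233), and the latter call was lost without 4 of the 10 PT replicates, with adjusted p up to 0.0925. The other 4 members in the PT fit had log2 changes from sham to UUO between 0.00 and 0.40, and none was called. Plod2 in PT spread from 10.1 to 36.3 FPKM within UUO, wider than the 13.2 to 15.6 of sham.

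In endothelial cells 2 of the 9 members in the fit rose from sham to UUO, where 1.98% of 13393 genes were called and 1.28% were higher. Plod1 went from 18.1, 26.0, 26.0 and 37.1 FPKM to 41.0, 56.6 and 60.7 in UUO and 55.4, 56.9, 61.3 and 61.4 in rUUO. Its change was 0.97 ± 0.24 in UUO (adjusted p = 0.0454, limma) and 1.14 ± 0.22 in rUUO over sham (0.0111), the 1 member of 9 called there, where 1.77% of genes were called. Serpinh1 went from 41.4 to 81.3 FPKM in sham to 108 to 120 in UUO, a change of 0.90 ± 0.22 (adjusted p = 0.0467, limma). Both UUO calls sat at the threshold and were lost without most single endothelial replicates, 9 of 11 for Plod1 and 10 of 11 for Serpinh1, with adjusted p up to 0.158. From UUO to rUUO 0 of 9 members and 0.0597% of genes were called. Plod2 was at 2.82 FPKM in UUO replicate 2, against 20.9 and 23.9 in the other UUO samples. Podocyte markers summed to 292 to 627 FPKM in endothelial sham and 318 to 330 in UUO, and distal nephron markers to 174 to 896 and 69.1 to 266.

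In macrophages 0 of the 9 members in the limma fit were called in any comparison. The background was 4.99% of 13332 genes from sham to UUO, 0.0% from UUO to rUUO and 3.44% from sham to rUUO, and at an unadjusted p under 0.05 the members numbered 1, 0 and 1. Of all genes 945 reached that unadjusted p from UUO to rUUO, and 2 were called after quantile normalization. Plod1 had the highest mean among them, 14.7 ± 1.51 FPKM in sham, 23.4 ± 7.36 in UUO (SD, n = 4) and 20.8 ± 4.09 in rUUO (n = 3). The log2 change of Plod1 in UUO was 0.58 ± 0.25 (adjusted p = 0.221, limma). Lox reached at most 3.37 FPKM and Loxl1 at most 2.18 FPKM in any macrophage sample.

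**Figure D4:**
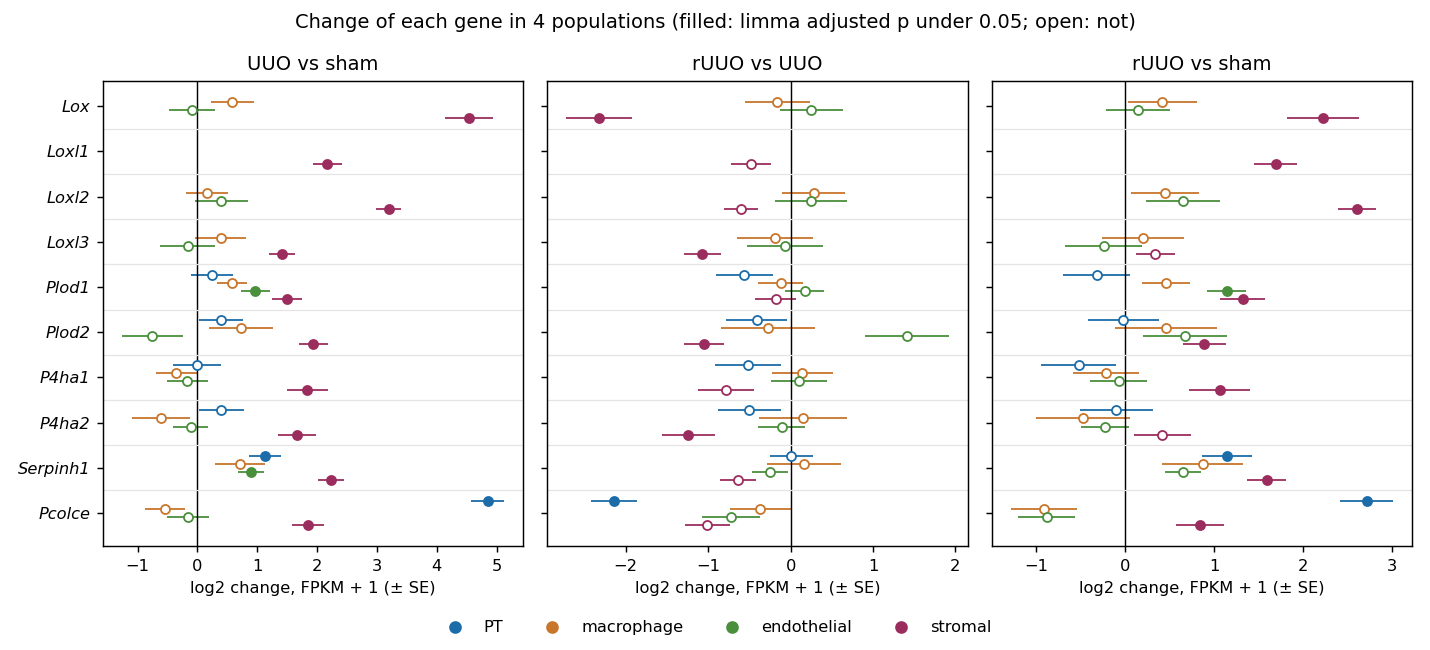
Log2 change of FPKM + 1 (± SE from limma) for each gene in 3 comparisons, coloured by population. Filled points passed an adjusted p of 0.05, open points did not, and genes under a mean of 1 FPKM in a population have no point. All 10 stromal points are filled for UUO against sham, and Pcolce in PT is the point furthest from 0 at 4.85.

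The change from sham to UUO was compared between populations in 1 fit. Genes that were under 1 FPKM on average in a population could enter this fit through the other populations, as Lox, Loxl1, Loxl2 and Loxl3 did for PT and Loxl1 for macrophages and endothelial cells. Their differences from those populations mostly restate the stromal rise against low values. Of the 9 members that passed the filter in endothelial cells, the change was larger in stroma for 8, and Plod1 was the exception (13.1% of 14332 genes called). With a pseudocount of 0.1, or with rescaling without mitochondrial genes, those of Loxl3, P4ha2 and Serpinh1 were no longer called. No filter also ended those of P4ha2 and Serpinh1, and quantile normalization that of Serpinh1. Loxl3, P4ha2 and Serpinh1 lost the call without 6, 6 and 7 of the 44 samples in turn. The difference of Plod2, 2.68, kept its call without each sample but ranged from 1.81 to 3.16, with adjusted p up to 0.0494 in limma. Of the 9 that passed in macrophages the stromal change was larger for 6 (16.2% called). Of the 6 that passed in PT it was larger for Plod1, P4ha1 and Serpinh1 and smaller for Pcolce, where 29.2% of genes were called and the median difference of all genes was -0.51. Of all calls against PT 21.1% were higher, and 49.5% after quantile normalization, and against macrophages 48.6%, and 35.4% with rescaling. The difference of Serpinh1 from PT, 1.09 ± 0.42 (adjusted p = 0.0482, limma), was lost in 5 of 7 other settings and without 28 of the 44 samples in turn, with adjusted p up to 0.118. Lox differed by 3.96 log2 units from macrophages and by 4.64 from endothelial cells. For Pcolce the stromal change was 3.00 log2 units smaller than that in PT and 2.39 and 2.01 larger than those in macrophages and endothelial cells. For the change from UUO to rUUO, Lox was the 1 member called against macrophages and endothelial cells, lower in stromal cells by 2.16 and 2.57 log2 units, where 1.17% and 0.963% of genes were called. The call against macrophages was lost with a pseudocount of 0.1 or rescaling. Against PT, where Lox did not pass the filter, 0 of the 6 members that did were called, and 7.43% of genes were. These 3 contrasts share the stromal samples.

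Other collagen genes moved with the members in stromal cells. Of 23 further genes of collagen biosynthesis in the fit, 19 rose and 1 fell from sham to UUO, with a median log2 change of 1.58. P4ha3, another alpha subunit of prolyl 4-hydroxylase, rose by 4.99 ± 0.44 (adjusted p = 8.28e-07, limma), more than any member. P3h2, a prolyl 3-hydroxylase known in basement membrane collagen, was the 1 that fell, by 2.38 ± 0.38 (0.000229), and it rose again by 1.79 ± 0.38 from UUO to rUUO (0.0166), while P4ha3 fell by 3.00 ± 0.44 (0.00208). All 9 fibrillar collagen chains in the fit rose in UUO, with a median of 3.59, led by Col1a1 at 4.01 ± 0.33 and Col1a2 at 3.90 ± 0.30 (adjusted p = 4.79e-07 and 3.06e-07, limma). From UUO to rUUO 7 of them fell, furthest Col11a1 at -2.47 ± 0.50 and Col24a1 at -1.96 ± 0.38 (adjusted p = 0.0134 and 0.0106, limma), and Col1a1 and Col1a2 were still 2.70 ± 0.33 and 2.77 ± 0.30 above sham (3.13e-05 and 1.31e-05).

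Of 10 elastic fibre genes, among them the lysyl oxidase substrate elastin, 9 rose in UUO, with a median of 2.34. Ltbp4, a latent TGF-beta binding protein of elastic fibres, was the 1 that did not pass (0.44 ± 0.28, adjusted p = 0.272, limma), and it rose by 1.05 ± 0.28 from UUO to rUUO (0.0497) while 5 of the list fell. Fbn2 was the list's largest rise over sham in rUUO, at 3.46 ± 0.36 (adjusted p = 7.87e-06, limma). Of 12 targets of hypoxia-inducible factor in the fit, 4 rose (Hk2, Adm, Ldha and Bnip3) and 2 fell in UUO, with a median of 0.39 against -0.07 for all genes. Ndrg1 fell by 1.36 ± 0.26 (adjusted p = 0.000949, limma) and the glucose transporter gene Slc2a1 by 0.85 ± 0.27 (0.0297), and Slc2a1 was 1.12 ± 0.27 below sham in rUUO (0.00885). From UUO to rUUO 3 of the 12 fell and 0 rose, with a median of -0.84.

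**Figure D5:**
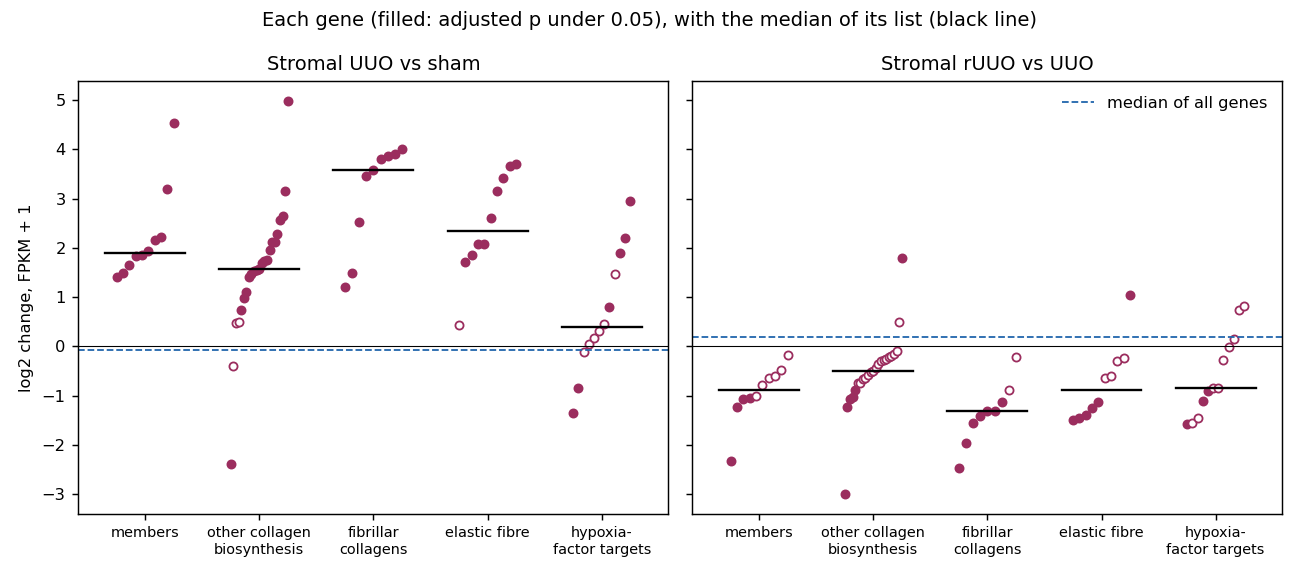
Log2 change of FPKM + 1 in stromal cells for the members and 4 other gene lists, in UUO against sham and rUUO against UUO. Each point is a gene, filled where the adjusted p passed 0.05, black lines are list medians and the dashed line is the median of all genes tested. Members, other collagen genes, fibrillar chains and elastic fibre genes lie mostly above 0 on the left and below 0 on the right.

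Over the 12 stromal samples, the gene most like the mean of the members on the log2 scale was Pabpc1, a poly(A)-binding protein (Pearson r = 0.994), among 9018 genes averaging 5 FPKM or more. It was followed by Col5a1 (0.990), P4hb, which encodes the beta subunit of prolyl 4-hydroxylase (0.989), Col3a1 (0.989), Surf4 (0.986), Tmed9 (0.986), Fbln2 (0.985), Col5a2 (0.985), Elf4 (0.984) and Sparc (0.984). Surf4 and Tmed9 act in transport through the early secretory pathway. Single members differed in their nearest genes: Lox lay closest to Fbln2 (0.989) and Col5a1 (0.982), Serpinh1 to Tmed9 (0.989), Loxl2 to Sulf1 (0.991), Loxl1 to Lgi2 (0.989) and Loxl3 to Mest (0.987). Plod1 lay closest to Ap2a2 (0.967), Plod2 to Chl1 (0.969), Pcolce to Nid1 (0.968), P4ha1 to Prdx4 (0.943) and P4ha2 to Sbsn (0.944). These correlations describe 12 samples that include the 3 surgeries, so they follow the differences between groups.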

How the data were processed

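RNA was amplified with the Ovation RNA-Seq System V2 from cells sorted by flow cytometry. The deposited file gives FPKM values, computed by the authors, of 53465 genes (build GRCm38), and the submitters' processing notes name FastQC, Bowtie2, RSEM and DESeq2 with build mm10. The table holds no counts, so the absolute depth is unknown. Of 46 value columns, 44 were used; 2 that carry the same sample name were not. PT sham replicate 3 was not analysed here, and a PT sample whose title names both sham and UUO was grouped by its treatment label (UUO). Values were analysed as log2(FPKM + 1) with limma 3.58.1 (R 4.3.3, moderated with an intensity trend), in genes averaging 1 FPKM or more over the samples of the fit, with Benjamini-Hochberg adjustment over all of these and a threshold of 0.05. Surgeries were compared within each population, populations within sham, and differences of changes in 1 fit over the 4 populations. Scripts were tested on simulated stromal data, where the test of UUO against sham recovered 18% of changes of 1 log2 unit. It recovered 83% of changes of 2 log2 units, and 3.81% of all calls were false. Only 100 of 14033 genes were changed at each size, whereas 26.4% were called in the real comparison, and groups of 3 were not simulated. These shares therefore describe the simulated setting and not the power of the real tests. A change that was not called is not shown to be absent. A gene symbol that occurs on several rows (Aldoa) was left out of its list. Alternatives were a pseudocount of 0.1, no filter, TPM, rescaling without mitochondrial genes, quantile normalization, no trend, a replicate block, a fit on all 4 populations and leaving out each replicate. All members were named; from the other lists, the 3 largest rises and falls past the threshold in each stromal comparison, and the 10 genes most like the members' mean and those most like each member by Pearson r. Members and lists were chosen with earlier results of these data known. Promoters are from RefSeq (GRCm38.p6), in which 5 of the 10 members were found, and exon overlaps from GENCODE on the same build. An exact permutation test (two-sided) was run for each member.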

Additional observations from a re-analysis of the deposited data

Results flagged for a closer look

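Dixon's ratio of gap to range was taken on the log2(FPKM + 1) scale in 80 groups of 4 samples. In 3 of them a sample's gap to the others exceeded the 95% critical value, and chance gives about 1 in 20. Levels below are in FPKM and ratios are those of the log2 scale. Whether the same samples exceed the critical value on the FPKM scale was not tested. Lox in stromal UUO replicate 3 was at 222 FPKM against 518 to 579 in the others (ratio 0.883). Plod2 in stromal rUUO replicate 1 was at 181 FPKM against 99.0 to 104 (ratio 0.912). Loxl1 in endothelial rUUO replicate 4 was at 0.54 FPKM against 1.13 to 1.20 (ratio 0.909).

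The change from sham to UUO differed between stromal cells and another population for 23 pairs of gene and population, by the limma test of the difference itself with Benjamini-Hochberg adjustment. Of 14332 genes, 29.2% were called in this way against PT, 16.2% against macrophages and 13.1% against endothelial cells. Lox, Loxl1 and Loxl2 in PT, and Loxl1 in macrophages and endothelial cells, averaged under 1 FPKM and entered the fit through other populations, so that their differences mostly restate the stromal rise. Against PT, the stromal log2 change was larger by 4.21 for Lox (adjusted p = 1.98e-08), 2.37 for Loxl2, 2.15 for Loxl1, 1.84 for P4ha1, 1.25 for Plod1 and 1.09 for Serpinh1 (adjusted p = 0.0482, lost in 5 of 7 other settings). For Pcolce the difference, stromal minus PT, was -3.00 (adjusted p = 3.8e-06). Against macrophages it was larger by 3.96 for Lox, 3.04 for Loxl2, 2.39 for Pcolce, 2.27 for P4ha2, 2.19 for P4ha1, 1.73 for Loxl1 and 1.52 for Serpinh1. Against endothelial cells it was larger by 4.64 for Lox, 2.80 for Loxl2, 2.68 for Plod2, 2.01 for Pcolce, 2.01 for P4ha1, 1.93 for Loxl1, 1.77 for P4ha2, 1.57 for Loxl3 and 1.33 for Serpinh1. The change of Lox from UUO to rUUO also differed in limma, by -2.16 against macrophages (adjusted p = 0.0209) and -2.57 against endothelial cells (0.00424). In these contrasts 1.17% and 0.963% of genes were called. Against PT the difference was -2.17 (0.00612, 7.43% of genes called), but there Lox entered the fit only through other populations.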

How the results depend on the processing

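The rise of all 10 members in stromal UUO kept its direction and its call under the 8 alternatives and without each of 12 replicates. Of the other called changes of single members, counts called moved as follows. In PT, quantile normalization left 1 of 2 for UUO against sham, and no filter or the replicate block left 1 of 2 for rUUO against sham (1 to 2 without single replicates). In endothelial cells, UUO against sham went from 2 to 0 with no filter, TPM, rescaling without mitochondrial genes, no trend, the replicate block or the fit on all 4 populations, to 1 with quantile normalization, and to 0 to 1 without single replicates. For rUUO against sham it went from 1 to 0 with no trend or the block. In macrophages UUO against sham gave 0 to 1 without single replicates, 1 being without UUO replicate 2. In stromal cells, rUUO against UUO went from 4 to 2 with no filter or no trend and to 1 with the block, where the fall of Lox had an adjusted p of 0.0779 and that of Loxl3 0.0852 (limma), and to 2 to 6 without single replicates. For rUUO against sham it went from 8 to 5 with no filter, rescaling without mitochondrial genes or quantile normalization. In sham, macrophages against PT went from 7 to 4 with rescaling or quantile normalization, where P4ha1 turned from 1.05 to -0.02, and endothelial cells against PT from 6 to 3 with quantile normalization. The difference between stromal and endothelial changes from sham to UUO went from 9 to 5 with a pseudocount of 0.1, without Loxl1, Loxl3, P4ha2 and Serpinh1. Rescaling also ended those of Loxl3, P4ha2 and Serpinh1, no filter those of P4ha2 and Serpinh1, and quantile normalization that of Serpinh1. The pseudocount of 0.1 also ended the differences from PT of Loxl2 (2.37 to 1.43, adjusted p = 0.0709 in limma) and Serpinh1 (1.09 to 0.98, 0.118), the latter also lost with no filter, TPM, rescaling and no trend, and the difference from macrophages of Loxl1 (1.73 to 0.98, 0.438). For the change from UUO to rUUO, stromal minus macrophage went from 1 to 0 with a pseudocount of 0.1 or rescaling (0 to 1 without single replicates, 0 without macrophage rUUO replicate 6 or stromal UUO replicate 1), and stromal minus endothelial from 1 to 2 with the block (1 to 2 without single replicates). The cause of these moves was not tested. Same-numbered samples of 1 population did not deviate together (35 pairs, r -0.062 to 0.117, 1 over 0.1), so the numbers were not taken to pair samples. Same-numbered sham samples of 2 populations had r -0.079 to 0.159 (21 pairs, 2 over 0.1). Samples of different populations were treated as independent in the main fits. If the numbers name mice, p-values between populations take no account of a shared mouse there. With no counts, precision rests on 3 or 4 samples a group.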
